A study of Mus musculus with 4 samples.

Results

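The Id family holds 4 genes, Id1, Id2, Id3 and Id4, of 27998 genes counted by droplet single-cell RNA sequencing in mouse kidney during glyoxylate treatment. The 4 genes were taken by symbol, and each was read in cells assigned to 5 gates by UMIs (unique molecular identifiers, 1 per captured RNA molecule) of other genes. In proximal tubule cells, Id1 and Id3 were 4.88-fold and 3.68-fold higher after 7 days than at day 0, while Id2, the most abundant member, was 1.17-fold higher. Id2 and Id3 were both higher in thick limb cells, by 2.50-fold and 2.54-fold, and in distal cells, by 3.06-fold and 3.298-fold. The family was chosen with these values known, so every difference between days is a description and no test was made.

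The mice were male C57BL/6 animals, 6 to 8 weeks old, injected intraperitoneally with glyoxylate for 0, 1, 4 or 7 successive days (D0, D1, D4 and D7), and D0 is the only control. Glyoxylate is turned into oxalate in the body, and calcium oxalate crystals then form in the tubules. Each day has 1 library, and the sources used here do not say how many mice went into it. Kidneys were minced and digested with trypsin and DNase, and the labels name the cells only as renal cells. Without replicates, the intervals given are at 95% and cover the error of counting UMIs, not the spread between mice or libraries.

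Id proteins are helix-loop-helix proteins that lack the basic region with which related factors bind DNA. They pair with E proteins (Tcf3, Tcf4, Tcf12) and keep them and their bHLH partners off DNA, and they are known as inhibitors of differentiation that also let cells divide. Bone morphogenetic protein (BMP) signalling through SMAD1, SMAD5 and SMAD9 is the classical inducer of Id1, Id2 and Id3, and immediate-early factors can induce them too. In kidney, BMP signalling is known for its part in tubule repair and in limiting fibrosis.

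The 4 genes lie on separate chromosomes. In the GENCODE M21 annotation of mm10 (GRCm38), with gene identifiers equal to those in the files, Id1 (ENSMUSG00000042745) spans chr2:152736251-152737410 on the plus strand. Id2 (ENSMUSG00000020644) spans chr12:25093799-25097140 on the minus strand. Id3 (ENSMUSG00000007872) spans chr4:136143497-136145755 and Id4 (ENSMUSG00000021379) spans chr13:48261228-48266026, both on the plus strand. The reads are tags of the 3′ ends of transcripts, so a UMI count was not divided by gene length.

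Promoter windows from RefSeq (GRCm38.p6), 250 bases before the gene's start in RefSeq, were found for 3 of the 4 genes, Id2, Id3 and Id4. They were searched on both strands for GGCGCC, a motif known to bind SMAD1 and SMAD5, for GTCTG or, on the other strand, CAGAC, the SMAD-binding element, and for CANNTG, the E-box that bHLH factors bind. GGCGCC stood in 9.59% of 32851 windows of the same length and in those of Id2 and Id4. GTCTG stood in 42.2% of windows and in that of Id3, and CANNTG in 66.2% and in that of Id2. The 5 matches are shown because these are the motifs through which BMP signals and bHLH factors are known to reach promoters. Each is a stretch of 30 bases, 5′ to 3′ on the gene's own strand, with the motif in capitals, and the matches are letters only, not shown binding sites. The GENCODE spans of Id2 and Id3 begin further upstream than the RefSeq starts, so the 4 matches of these genes lie inside the spans given above, and that of Id4 lies before its span.
Id2 GGCGCC, chr12:25096306-25096335, minus strand: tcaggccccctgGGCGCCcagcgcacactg
Id2 CANNTG, chr12:25096271-25096300, minus strand: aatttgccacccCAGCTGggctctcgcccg
Id3 CAGAC, chr4:136143643-136143672, plus strand: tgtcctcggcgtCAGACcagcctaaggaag
Id3 GTCTG, chr4:136143742-136143771, plus strand: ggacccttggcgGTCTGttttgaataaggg
Id4 GGCGCC, chr13:48260956-48260985, plus strand: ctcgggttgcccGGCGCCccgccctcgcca

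The libraries held 85009491 to 99337001 UMIs in 12730 to 16427 barcodes. The lowest barcode had 500 UMIs at D0 and D1 but 2919 at D4 and 2773 at D7, so the deposited cell lists were cut at different depths. A cell was kept with at most 50% of its UMIs from mitochondrial (mt-) genes, which left 56471 cells in all and removed 11.8, 10.2, 1.97 and 4.19% of barcodes at D0, D1, D4 and D7. Any pair of libraries shared 50 to 81 barcodes. The gates were at least 2 UMIs of Lrp2 and Slc34a1 together for proximal tubule, 3 of Slc12a1 for thick limb, 3 of Slc12a3 for distal tubule, 1 of Ptprc for immune cells, and UMIs of at least 2 of Kdr, Pecam1, Emcn and Egfl7 for endothelium. A cell that passed several gates counted in each.

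In the order D0, D1, D4 and D7, the proximal tubule gate held 12003, 8044, 15468 and 13079 cells. The thick limb gate held 106, 108, 106 and 173, the distal gate 353, 264, 208 and 310, the immune gate 735, 1350, 536 and 773, and the endothelial gate only 17, 8, 1 and 4. Markers not used in the gates were summed as a check of each name. At D0, the 9 proximal tubule markers summed to 60731 CPM in their own gate, the 6 thick limb markers to 14663 in theirs against 442 in the proximal gate, and the 6 immune markers to 10173 against 173. The 5 distal markers summed to 4573 CPM in their own gate against 91.5 in the proximal gate, but that gate held more of the thick limb markers, 6357 CPM, and of the proximal ones, 15522 CPM. In the endothelial gate 8, 7, 1 and 6 of 8 endothelial markers were detected. It went against its name at D4, with 1 marker, and at D7, where immune markers summed to 3812 CPM against 572 for endothelial ones and all 4 cells also passed the proximal gate. Many cells of the smaller gates also passed the proximal gate: 28.3, 21.3, 54.7 and 47.4% of thick limb cells, 37.7, 26.5, 70.7 and 47.7% of distal cells and 34.3, 30.3, 79.9 and 58.7% of immune cells. For this reason results in those gates are also given in cells that passed no other gate. Thick limb and distal cells also carried more mitochondrial RNA at D0 than later, with medians of 25.7 and 32.5% at D0 against 14.9 and 19.3% at D7.

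Id2 was the leading member in proximal tubule cells at every day. A gene's level is its UMIs divided by all UMIs of the gate's cells and scaled to a total of 1000000 (CPM). Id2 stood at 573, 562, 680 and 670 CPM at D0, D1, D4 and D7, where it ranked 254, 283, 213 and 217 among the 17545 to 17972 genes with a UMI. The D1 library was the lowest and D4 the highest, and the D7 to D0 ratio was 1.17 (1.15 to 1.18). Id2 supplied 87.3, 84.3, 74.4 and 66.8% of the family's UMIs, while the family's sum went from 656 CPM at D0 to 667, 915 and 1004.

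Id1, which stood at a low level in D0 proximal tubule cells, had the largest ratio of the family. Its level was 29.96 CPM at D0 and 32.2 at D1, then 110 at D4 and 146 at D7, from 2441, 2184, 9538 and 12497 UMIs. The D0 and D1 libraries were close together and far below D4 and D7. Against D0, the D1 ratio was 1.08 (1.02 to 1.14), the D4 ratio 3.66 (3.50 to 3.82) and the D7 ratio 4.88 (4.68 to 5.10). The D1 ratio turned to 0.979 when libraries were scaled by edgeR's TMM factors, which shift every D1 log2 ratio by -0.14. Id1 supplied 4.56% of the family's UMIs at D0 and 14.6% at D7.

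Id3, the close relative of Id1, was higher already at D1 and then at each later day. It stood at 49.4, 69.3, 121 and 182 CPM at D0, D1, D4 and D7, from 4023 to 15520 UMIs, and no interval of a day overlapped that of another. Against D0, the D1 ratio was 1.40 (1.35 to 1.46), the D4 ratio 2.45 (2.37 to 2.55) and the D7 ratio 3.68 (3.55 to 3.81). From D4 to D7 the ratio was 1.499 (1.46 to 1.54) for Id3 and 1.34 (1.30 to 1.37) for Id1. Id4 was scarce, at 3.96, 3.42, 3.80 and 5.57 CPM, and its D7 to D0 ratio was 1.41 (1.22 to 1.62) from 476 against 323 UMIs.

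Within the proximal tubule at D7, the order of levels was Id2, Id3, Id1 and Id4, and their counting intervals did not overlap. The same order held at D0, D1 and D4, where Id3 and Id1 came closest, at 121 and 110 CPM. A gene with 50 or more UMIs over both libraries was measured, and it was called where its CPM plus 1 differed at least 1.5-fold. No Id gene was called at D1, when 4.12% of 12850 genes were higher and 0.669% lower. Id1 and Id3 were called higher at D4, against 4.33% of 13006 genes, and again at D7, against 7.87% of 13089 genes. Id2 and Id4 were not called at any day, and no Id gene was called lower, against 0.992% of genes at D4 and 1.60% at D7. These shares are background for genes picked by this contrast and say nothing more about them. Just outside that fold in the family stood Id4 at D7, with a ratio of CPM plus 1 of 1.32, and Id3 at D1, with 1.40. The lowest called value was that of Id3 at D4, 2.43. Ranked from the highest ratio of CPM plus 1, Id1 was 61st and 68th at D4 and D7, and Id3 was 149th and 111th.

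**Figure D1:**
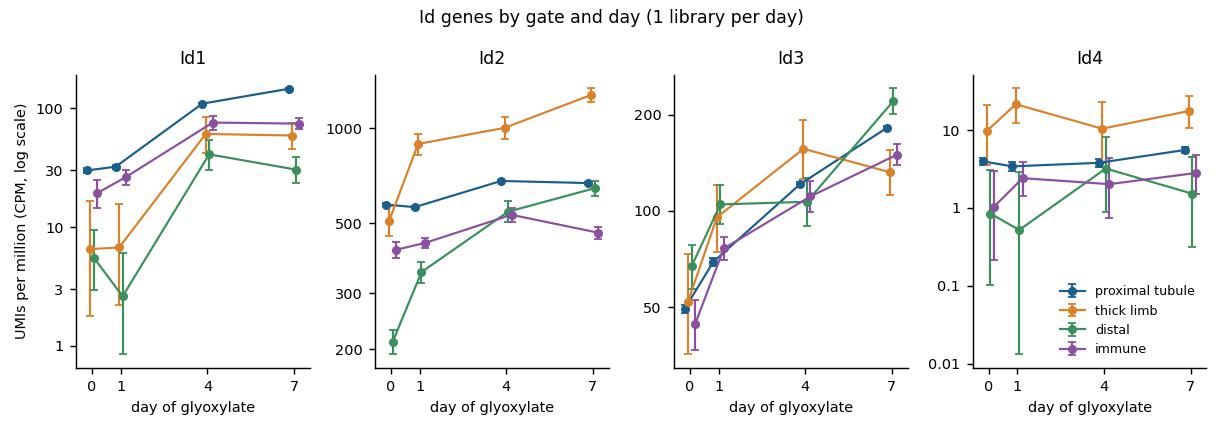
Levels of the 4 Id genes in CPM (log scale) against day of glyoxylate, 1 point per gate and library with 95% intervals for counting error. Id1 in the proximal tubule gate goes from 29.96 CPM at D0 to 146 at D7, and Id2 in the thick limb gate from 509 to 1273.

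The proximal tubule is a tube of segments with different transporters, and it was split by them. Early cells had at least 2 UMIs of Slc5a2 and Slc5a12, sodium-coupled transporters of the early segments, and more of these than of Slc7a13. Late cells had at least 2 UMIs of Slc7a13, an amino acid transporter of the last segment, and more of it than of the early pair. There were 3140, 1839, 4022 and 3551 early and 4174, 2573, 5237 and 4556 late cells at D0, D1, D4 and D7.

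Id3 differed most between the segments. In early cells it stood at 92.9, 131, 198 and 284 CPM, and in late cells at 23.7, 30.9, 76.2 and 115. Early cells were above late cells in all 4 libraries, by 3.91-fold at D0 (3.62 to 4.23) and 2.46-fold at D7 (2.37 to 2.56). The D7 to D0 ratio was thus 4.87 in late cells (4.53 to 5.23) and 3.06 in early cells (2.91 to 3.22). Late cells at D7, at 115 CPM, were near the level of early cells at D0.

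Id1 was more even along the tube. It stood at 40.1, 46.2, 117 and 162 CPM in early and 27.4, 24.9, 104 and 130 in late cells, and the ratio of early to late was 1.46 at D0 and 1.25 at D7. Between D0 and D1, Id1 was 1.15-fold higher in early cells (1.04 to 1.27) and lower in late cells, at 0.907 times its D0 level (0.826 to 0.995). In the remaining proximal cells, which met neither rule, Id1 stood at 23.3, 32.3, 111 and 156 CPM, a D7 to D0 ratio of 6.70 (6.08 to 7.40). Id2 was 710, 721, 798 and 787 CPM in early and 486, 476, 619 and 630 in late cells. Id4 was 6.46, 6.41, 5.53 and 8.22 CPM in early and 2.35, 1.84, 3.27 and 4.38 in late cells, the early cells being higher in each library. The early-to-late ratio of each of the 4 genes was lower at D7 than at D0, from 1.46 to 1.25 for Id2 and from 2.75 to 1.88 for Id4, and the intervals overlapped for Id4 only.

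**Figure D2:**
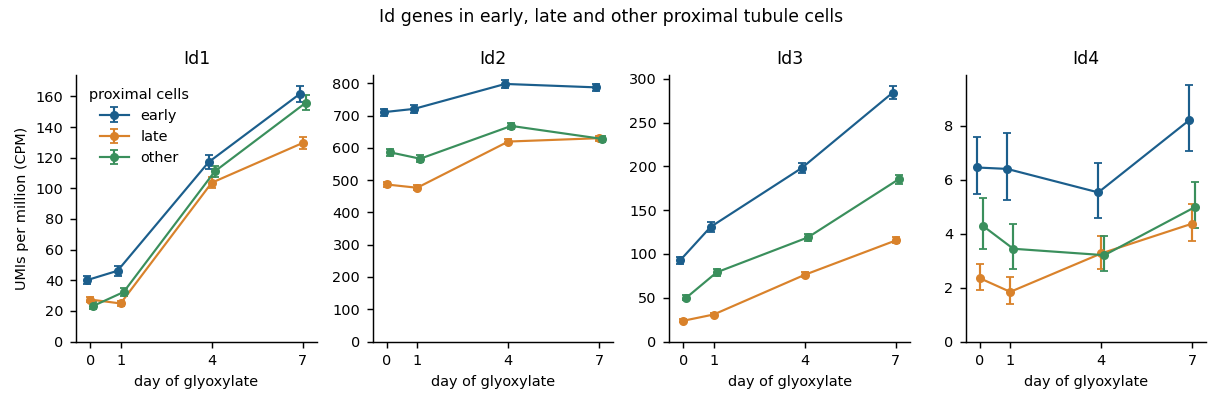
Levels of the 4 Id genes in CPM against day of glyoxylate in early, late and other proximal tubule cells, with 95% intervals for counting error. Early cells lie highest for Id3 in every library, at 92.9 CPM at D0 and 284 at D7, against 23.7 and 115 in late cells.

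At D4 and D7, more proximal cells also held an Id1 or Id3 UMI. To compare cells of equal depth, each was thinned to 2000 UMIs, which left out 1978, 1337, 0 and 0 proximal cells at D0, D1, D4 and D7. An Id1 UMI was found in 3.88, 3.34, 12.7 and 14.2% of thinned cells, and unthinned in 9.03, 8.33, 23.0 and 26.8%. Id3 was found in 7.75, 10.4, 15.3 and 21.4% of thinned cells (unthinned 15.9, 21.2, 28.7 and 38.7%). Id2 was found in 61.7, 60.5, 67.4 and 64.7% (unthinned 81.5, 82.1, 89.2 and 88.5%), so most proximal cells held it at every day. For comparison, an Id1 UMI was found in 1.04, 0, 3.57 and 0.625% of thinned distal cells of no other gate. These were 192, 168, 56 and 160 cells, with median depths of 4078 to 5757 UMIs against 5024 to 8295 in the proximal gate. They were selected for under 2 UMIs of Lrp2 and Slc34a1, so their share does not measure free RNA. The count of 0 among 168 cells at D1 allows a share of up to 1.79%.

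Cells with several Id1 UMIs were also more frequent. After thinning, 0.389, 0.492, 2.02 and 2.62% of proximal cells had 3 or more Id1 UMIs, and for Id3 the shares were 0.678, 1.03, 2.04 and 3.19%. For Id2 they were 14.0, 13.5, 17.7 and 16.9%. The highest Id1 count in a thinned cell was 8, 11, 12 and 14. Id1 was more frequent in cells that also held Id3. Among cells with an Id3 UMI, 12.1, 10.7, 25.9 and 29.2% also had one of Id1, against 3.19, 2.48, 10.4 and 10.1% of cells without. The same held within early cells, with 30.7 against 12.3% at D7, and within late cells, with 29.7 against 10.6%.

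**Figure D3:**
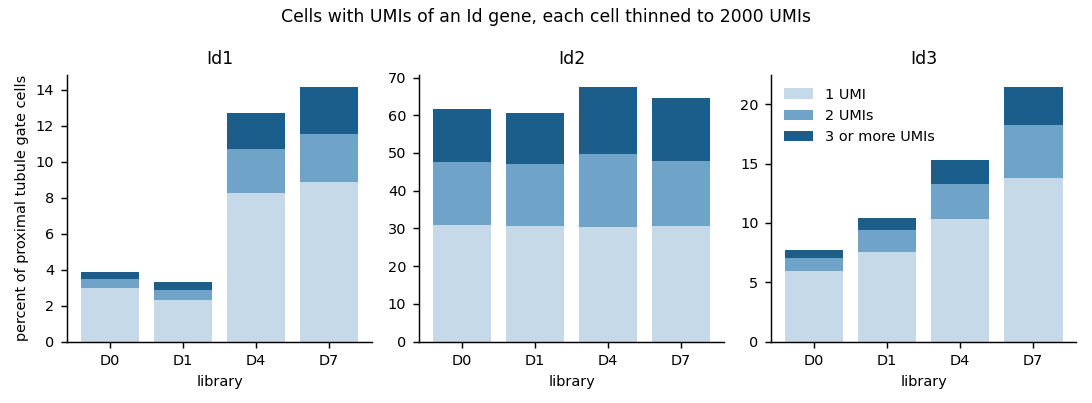
Share of proximal tubule gate cells with 1, 2 or 3 and more UMIs of Id1, Id2 and Id3 in each library, every cell thinned to 2000 UMIs, as stacked bars. The bars for Id1 reach 3.88% at D0 and 14.2% at D7, and those for Id2 reach 61.7 and 64.7%.

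Havcr1 (Kim-1) is a receptor that injured proximal tubule cells make. A Havcr1 UMI was found in 10, 113, 468 and 604 proximal cells at D0, D1, D4 and D7, and these cells were compared with the other proximal cells of the same library. Id3 was higher in Havcr1-positive cells at D1, D4 and D7, by 1.63-fold, 1.53-fold and 1.49-fold, and at D7 stood at 262 against 177 CPM. Id1 was higher by 2.27-fold at D1 (1.83 to 2.78), 1.16-fold at D4 and 1.28-fold at D7. Id2 was lower, at 0.779 times the level of the other cells at D4 (0.743 to 0.817) and 0.922 times at D7. Id4 was 2.65-fold higher at D4 (1.77 to 3.85) and 1.51-fold at D7 (1.07 to 2.08), from 31 and 42 UMIs. At D1 its ratio was 1.06 (0.342 to 2.52) from 5 UMIs. The comparison was not matched for depth, and Id1 levels differed with depth within a library, as given below. At D7 the Havcr1-positive cells held 5143396 UMIs in 604 cells and the others 80267830 in 12475, so the former were deeper on average. The part of depth in these differences was not tested. Proximal cells without a Havcr1 UMI had Id1 at 29.9, 31.4, 109 and 144 CPM and Id3 at 49.4, 68.5, 119 and 177 CPM. Their D7 ratios to D0 were 4.81 for Id1 and 3.57 for Id3. They were 11993 of 12003 proximal cells at D0 and 12475 of 13079 at D7. These ratios therefore had to lie near those of the whole gate and say little about injured cells. At D0, only 4 Id1 and 2 Id3 UMIs fell in the 10 Havcr1-positive cells, too few to compare.

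Within a library, Id1 levels differed with cell depth and mitochondrial share. At D7, Id1 stood at 66.9 CPM in proximal cells with under 3000 UMIs, 108 in those from 3000 to under 6000 and 169 in those with 6000 or more, and at D0 at 21.01, 25.8 and 31.7. In the shallowest cells the D4 level, 79.3 CPM, was above that of D7. In cells with 25 to 50% mitochondrial UMIs, Id1 was 18.6 CPM at D0 and 65.1 at D7, and below 10% it was 33.2 and 160. In each of 6 strata, 3 of depth and 3 of mitochondrial share, Id1 and Id3 were higher at D7 than at D0. Endothelial markers, whose cells had the highest Id1 and Id3 levels, summed to 1.47, 0.885, 0.907 and 1.04 CPM in the proximal gate. By the median marker this was 0.0289% of the endothelial gate level at D0 and 0.0469% at D1, and that share of the endothelial Id1 level comes to 0.216 CPM at D0.

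In the thick limb, which reabsorbs salt through Slc12a1, Id2 was the most abundant member at every day. It was 509, 890, 1001 and 1273 CPM at D0, D1, D4 and D7, from 313, 662, 576 and 1444 UMIs. D0 lay below all later libraries. The D1, D4 and D7 ratios to D0 were 1.75 (1.53 to 2.01), 1.97 (1.71 to 2.26) and 2.50 (2.21 to 2.83). In thick limb cells of no other gate, 73, 82, 45 and 85 in number, Id2 was 515, 846, 1133 and 1475 CPM, a D7 ratio of 2.86 (2.41 to 3.42). Over all thick limb gate cells, the level at D0 was 0.889 times that in the proximal tubule (0.793 to 0.993), and at D7 it was 1.90 times as high (1.80 to 2.00). Set against thick limb cells of no other gate, the proximal level was 1.11 times theirs at D0 (0.955 to 1.30) and 0.454 times at D7 (0.420 to 0.492). In these single-gate cells thinned to 2000 UMIs, 51.7% held an Id2 UMI at D0 (30 of 58) and 84.7% at D7 (72 of 85).

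The distal tubule, which reabsorbs salt through Slc12a3, started from the lowest Id2 level of these 4 gates. Id2 was 211, 350, 544 and 645 CPM at D0, D1, D4 and D7, each library above the one before. Ratios to D0 were 1.66 (1.48 to 1.87), 2.58 (2.29 to 2.90) and 3.06 (2.76 to 3.40). In distal cells of no other gate Id2 was 130, 343, 346 and 559 CPM, and the D7 ratio was 4.31 (3.58 to 5.21). Over all distal cells the D7 ratio was 2.31 with at most 25% mitochondrial UMIs per cell, 5.52 without the highest doublet scores and 7.18 with carried proximal RNA taken off. The proximal level of Id2 was 2.72 times the distal one at D0 and 1.04 times at D7 (0.982 to 1.10). Set against distal cells of no other gate, it was 4.41 times at D0 (3.76 to 5.21) and 1.198 times at D7 (1.09 to 1.31), so proximal cells were higher at both days.

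Id3 was also higher in both gates. In the thick limb it was 52.1, 95.5, 156 and 132 CPM, with a D7 ratio of 2.54 (1.72 to 3.85), and the intervals of D4 and D7 overlapped. In thick limb cells of no other gate it was 43.7, 96.1, 166 and 92.6 CPM, with a D7 ratio to D0 of 2.12 (1.13 to 4.23) and to D4 of 0.559 (0.341 to 0.922). In distal cells it was 67.0, 105, 107 and 221 CPM, with a D7 ratio of 3.298 (2.74 to 3.98), or 2.78 (2.15 to 3.62) in cells of no other gate. Distal Id3 thus differed most between D4 and D7, by 2.07-fold (1.70 to 2.53). Id4 was rare in both gates, with 6, 16, 6 and 20 UMIs in the thick limb, where it stood at 9.76 to 21.5 CPM, and 1 to 4 UMIs in distal cells. The thick limb level of Id4 was 3.16 times that of the proximal tubule at D7 (1.91 to 4.94). In cells of no other gate, Id4 had 4, 12, 5 and 9 UMIs in the thick limb, at 12.5, 28.1, 25.9 and 21.4 CPM, and 0, 0, 1 and 1 in distal cells.

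Id1 in these gates at D4 and D7 stood beside a larger share of proximal RNA, whose part in it was not tested. Over all cells of the gate, Id1 was 6.51, 6.73, 60.9 and 59.0 CPM in the thick limb and 5.51, 2.61, 41.0 and 30.5 in distal cells. Proximal markers in these gates stood at 26.9, 22.7, 38.0 and 30.3% of their proximal level in the thick limb and at 25.3, 18.4, 45.2 and 31.7% in distal cells. That share of the proximal Id1 level comes to 8.05, 7.33, 41.6 and 44.4 CPM in the thick limb and 7.57, 5.93, 49.5 and 46.4 in distal cells. In cells of no other gate, Id1 had 1, 0, 1 and 8 UMIs in the thick limb and 2, 4, 3 and 9 in distal cells, or at most 19.0 CPM. The D7 ratio in such cells was 6.09 in the thick limb (0.816 to 270), so a difference was not detectable at this depth, and 6.05 in distal cells (1.25 to 57.6), where carried proximal RNA would hold 16.6 CPM against the 10.5 measured at D7. Called by the 1.5-fold rule at D7 were Id1, Id2 and Id3 in both gates, against 13.6% of 4018 genes higher in the thick limb and 15.1% of 6721 in distal cells.

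**Figure D4:**
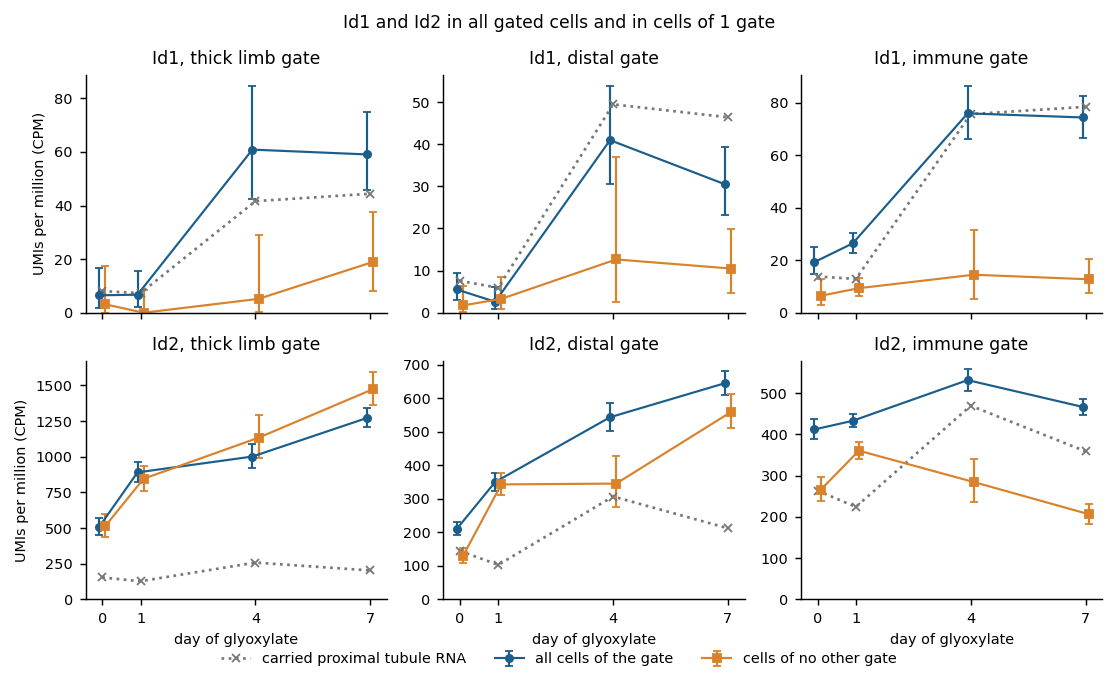
Id1 (upper row) and Id2 (lower row) in CPM against day in all cells of the thick limb, distal and immune gates and in cells of no other gate, with 95% counting intervals. Dotted lines give the level that the proximal tubule RNA carried in all cells of each gate would hold. They do not apply to cells of no other gate, which carry less of it. Over all cells of the gate, Id2 in the thick limb lies above the line. Id1 lies above it in the thick limb at D4 and D7 and below it in distal cells at each day. At D4 and D7, Id1 is lower in cells of no other gate than in all cells.

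Immune cells depend on Id2 for natural killer and other innate lymphoid cells. Over the whole immune gate, Id2 stood at 412, 433, 532 and 467 CPM, but in immune cells of no other gate at 266, 361, 285 and 207. The D7 to D0 ratio was accordingly 1.13 (1.05 to 1.22) in the whole gate and 0.778 (0.661 to 0.916) in cells of no other gate, opposite in direction. It was 0.984 with doubled gate minima and 0.845 with carried proximal RNA taken off. Proximal markers stood at 46.0, 39.9, 69.0 and 53.6% of their proximal level in the whole gate and at 9.33, 8.77, 14.0 and 13.0% in cells of no other gate. Id1 was 19.3, 26.4, 75.9 and 74.4 CPM in the whole gate, where carried RNA would hold 13.8, 12.9, 75.6 and 78.4, and 6.46, 9.35, 14.5 and 12.7 CPM in cells of no other gate, from 8, 32, 6 and 17 UMIs.

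Id3 in immune cells of no other gate was 32.3, 49.6, 70.0 and 145 CPM, with a D7 ratio of 4.48 (3.17 to 6.46). Each library was above the one before, but the intervals of D0 and D1 and of D1 and D4 overlapped. The D4 level came from 29 UMIs. Id3 was 44.1, 76.3, 111 and 150 CPM in the whole gate. Phagocytes outside the proximal gate (at least 2 UMIs of C1qa, C1qb, C1qc and Csf1r) had Id3 at 37.1, 90.5, 61.1 and 138 CPM, from 9, 69, 6 and 78 UMIs, a D7 ratio of 3.72 (1.86 to 8.45). Their Id2 level was 74.2, 109, 214 and 172 CPM.

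Lymphocytes differed in Id2 at D0 and D1. Natural killer cells outside the proximal gate had it at 888 and 812 CPM at D0 and D1, from 25 and 57 cells, and at D4 and D7 only 3 and 2 such cells were left. T cells had 453, 603, 372 and 544 CPM. B cells had 50.8 and 84.4 CPM at D0 and D1, from 9 and 30 UMIs. Only 4 and 13 B cells were left at D4 and D7. They held 104 CPM at D4 (12.6 to 377) from 2 UMIs and 456 at D7 (289 to 684) from 23. The D7 interval of B cells overlapped that of T cells, 427 to 683. Id1 was found in these lymphocytes outside the proximal gate in 0 UMIs at D0 and, at D1, in 2 UMIs of T, 2 of B and 0 of natural killer cells. The makeup of the gate differed between libraries, so its Id levels mix cell types in different shares.

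In the endothelial gate, Id1 and Id3 were the highest of all gates at D0. The 17 cells held 37 Id1 UMIs (747 CPM, 526 to 1029) and 70 Id3 UMIs (1413 CPM, 1101 to 1785), which was 24.9 and 28.6 times the proximal level. Id2 was 525 CPM, close to the proximal tubule. At D1 the 8 cells held 319 CPM of Id1 and 283 of Id3. In the 10 and 5 endothelial cells of no other gate, Id1 was 1009.5 and 1012 CPM at D0 and D1, a ratio of 1.00 (0.408 to 2.25), and Id3 was 2195 and 899 CPM, a ratio of 0.410 (0.168 to 0.871) from 8 against 50 UMIs. The 1 and 4 cells at D4 and D7 held no Id1 UMI, which allows up to 889 and 143 CPM at 3 counts, but by the markers above these cells cannot be described as endothelial. Proximal markers stood at 55.3, 72.7, 97.1 and 64.9% of their proximal level in this gate.

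BMP and its pathway were read in proximal tubule cells from lists of 81 genes in 11 groups. Among the ligands, Bmp4 and Bmp7 were the most abundant, at 25.1 and 14.8 CPM at D0, with D7 ratios of 1.12 (1.05 to 1.18) and 1.03 (0.952 to 1.12). Over all 13089 genes tested at D7, 7.87% were called higher and 1.60% lower, and the counts below stand beside those shares. Of 5 measured ligands 1 was called lower at D7 and none higher. This was Bmp3, which antagonises other BMPs, at 0.324 times its D0 level (0.217 to 0.474) from 37 against 109 UMIs. The call of Bmp3 was lost with a pseudocount of 10 CPM or at 2-fold. Bmp2 was at 0.3003 times and Bmp6 at 1.69 times from few UMIs, and neither was called. None of 6 measured receptors was called. The type I receptors Acvr1 and Bmpr1a stood at 1.27 and 1.16 times their D0 level, and the type II receptors Acvr2a and Bmpr2 at 1.05 and 0.964 times. The signal carriers Smad1, Smad5, Smad9 and Smad4 were at 1.15, 0.992, 1.43 and 1.06 times, none of them called.

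Of 6 measured BMP inhibitors, 1 was called higher at D7, against 7.87% of all genes. Sostdc1, a secreted inhibitor of BMP made in the kidney, was 1.74-fold higher (1.57 to 1.93). Smad7, an inhibitory SMAD that is itself a target of the pathway, was 1.42-fold (1.36 to 1.49), Chrd 1.44-fold and Bambi 1.51-fold. The other known BMP targets of the list, Hey1, Atoh8, Msx1 and Msx2, were not measured. Atoh8 had 8 UMIs at D0 and 18 at D7, Msx2 had 21 and 4, Msx1 had 4 and 4, and Hey1 had none at either day. The E proteins Tcf3, Tcf4 and Tcf12, the partners Id proteins bind, stood at 1.08, 0.957 and 1.03 times their D0 level, and none of 3 was called at any day. At D7 their levels were 7.36, 20.4 and 22.7 CPM against 670 for Id2.

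Of 9 measured other bHLH factors, 3 were higher at D7 and none lower, and here and for the next 3 lists the share over all genes was 7.87% higher and 1.60% lower. Myc was 2.80-fold, the circadian repressor Bhlhe40 1.73-fold and the Notch target Hes1 1.57-fold higher, while Bhlhe41, at 1.74-fold from few UMIs, was not called. Of 4 measured inhibitors of cyclin-dependent kinases 1 was higher, Cdkn1a (p21), at 3.79-fold, with 6.95 CPM at D0 and 26.3 at D7. Cdkn1c and Cdkn2b stood at 2.35 and 2.20 times from few UMIs and Cdkn1b at 0.869 times. In the TGF-beta arm, Tgfb1 was 2.01-fold higher (1.71 to 2.37). Immune markers in the proximal gate summed to 173, 376, 250 and 354 CPM at D0, D1, D4 and D7. The part of immune RNA in the Tgfb1 level was not tested. The other 5 measured genes of this arm, with Tgfbr1, Smad2 and Tgfbr2 at 1.28, 1.23 and 1.21 times, were not called. Of 8 factors of tubule identity, Pax8 was 1.69-fold higher, while Maf, Hnf4a and Nr1h4 were at 0.780, 0.907 and 1.10 times and 7 of the 8 were not called.

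Immediate-early and stress genes, which also answer to tissue digestion, were higher together with Id1 and Id3 in the proximal gate. Of 11, 2 were called higher at D1, 10 at D4 and 9 at D7, with none lower, against 4.12, 4.33 and 7.87% of all genes called higher. At D7, Atf3 was 7.14-fold, Ier3 3.91-fold, Hspa1a 3.34-fold and Fos 2.56-fold higher. In the thick limb and distal gates all 11 were called higher at D7, against 13.6 and 15.1% of all genes. The list's median log2 ratio of CPM plus 1 in the thick limb was 0.54 at D1 and 1.35 at D7, against 0.11 and 0.11 for all genes tested. In distal cells it was 0.66 and 1.94, against 0.09 and 0.21. The part of these genes in the Id levels of the proximal, thick limb and distal gates was not tested. In the proximal gate, the median log2 ratio of CPM plus 1 at D7 was 1.15 for this list and 0.07 for all 13089 genes tested. It was 0.04 for the BMP ligands, 0.05 for the receptors, 0.10 for the signal carriers, 0.34 for the inhibitors, 0.04 for the E proteins, 0.39 for other bHLH factors, 0.46 for the kinase inhibitors, 0.27 for the TGF-beta arm and -0.03 for the identity factors.

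**Figure D5:**
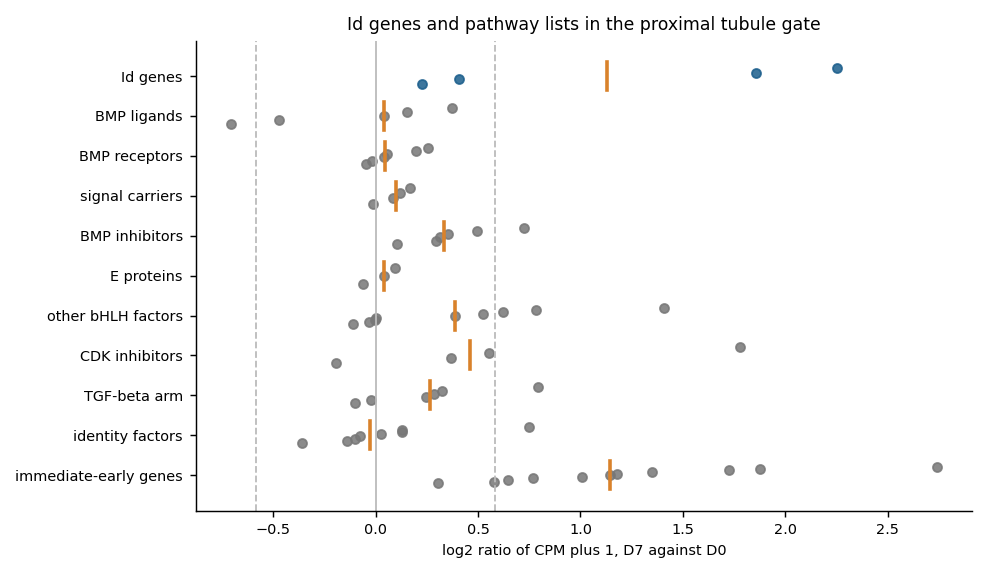
Log2 ratio of CPM plus 1 between D7 and D0 in the proximal tubule gate, 1 point per measured gene, by list. Orange bars are list medians, the solid line is a ratio of 1 and the dashed lines are the 1.5-fold limits. BMP receptors, signal carriers and E proteins lie within those limits, and 9 of 11 immediate-early genes lie above.

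Genes most like each Id gene were sought over 28 profiles (3 proximal classes and the 4 other gates at 4 days) by Pearson's r of log2(CPM + 1) among 7168 genes. The profiles of a day share a library and its free RNA, so r is a description. Nearest to Id1 were P4ha2 (0.91), Pcdh1, Gpt2, Gramd1b and Lims2, and nearest to Id3 were Sptan1 (0.91), Saysd1, Tulp4, Actr1a and Tspan31. Nearest to Id2 were Cldn10 (0.66), Spns2, Cldn16, Tsc22d1 and Car2, of which Cldn10 and Cldn16 are tight junction genes of the thick limb. Nearest to Id4 were Bmp4 (0.83), Naf1, Glb1l2, Ssfa2 and Lmo7. Id1 and Id3 had an r of 0.69 with each other, and Id2 had 0.26 with Id1 and 0.18 with Id3. The names rested on the thinly filled endothelial profiles, since over the 24 other profiles 0 of the 5 names of any Id gene stayed. There the nearest were Snhg12 for Id1 (0.92), Rab6a for Id2 (0.86), Ist1 for Id3 (0.80) and Epb41l5 for Id4 (0.90), and the r of Id1 and Id3 was 0.51.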

How the data were processed

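The deposited values are UMI counts, not normalized, 1 matrix for each of 4 libraries. The submitters' processing notes name Cell Ranger 3.1.0 and mm10. Per the file headers, the matrices were written by software version 3.0.1. How barcodes were called as cells, and with which gene annotation, is not given in the sources used here. The labels' protocols name 10x 3′ chemistry.

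Cells with at most 50% mt- UMIs were gated as the report says. UMIs were summed by gate and library and scaled to CPM. A ratio of CPM has an exact interval for 2 Poisson counts and a share an exact Clopper-Pearson interval, both at 95%. A share of 0 is given the limit of 3 counts. With 1 library per day, library and day cannot be told apart, and no p-value was computed. Carried RNA is the median over source markers of the level in the receiving gate divided by that in the source gate.

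Doublets were not removed. Scrublet's automatic threshold called 3128, 0, 1871 and 1684 barcodes at D0, D1, D4 and D7, so it did not work at D1, and removal of the highest scores at 0.8% per 1000 barcodes was an alternative.

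Members, gates and lists were chosen with earlier results of these data known. Named genes are the 4 Id genes, up to 4 measured members per list with the largest D7 ratio in the proximal gate, and the 5 most alike of each Id gene with a mean of at least 10 CPM. Bmp7 and the unmeasured BMP targets were named beyond this rule after their values were seen. edgeR TMM factors served as a scaling only. The ratio and call rules were run on simulated Poisson counts, the model that the intervals assume. These hold no spread between cells, mice or libraries, so the run checks the computation only. Python 3.11.15, numpy 2.4.6, scipy 1.17.1, pandas 2.3.3, scanpy 1.11.5, R 4.3.3 and edgeR 4.0.16 were used.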

Additional observations from a re-analysis of the deposited data

Results flagged for a closer look

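Id2 at D1 had counting intervals on either side of 1 in different gates, but it was nearly level in the proximal tubule. It was at 0.981 times its D0 level (0.968 to 0.995) in the proximal tubule gate, and 1.75-fold and 1.66-fold higher in the thick limb and distal gates. The ratio was 1.01 (0.991 to 1.04) in early and 0.979 (0.958 to 1.00045) in late proximal cells, where both intervals include 1. In the remaining proximal cells it was 0.966 (0.941 to 0.991). With 1 library per day, the difference was not tested.

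Cells of no gate, which enter none of the comparisons, also had more Id1 and Id3 than at D0. Id1 was 2.47-fold higher at D1, 1.80-fold at D4 and 2.66-fold at D7, and Id3 was 1.44-fold, 1.79-fold and 2.26-fold higher. These cells numbered 1699, 2166, 424 and 811. At D0, D1, D4 and D7, their summed mesenchymal markers (5 genes) were 5.8, 104, 186 and 122 CPM, urothelial markers (3 genes) 220, 490, 203 and 317, and intercalated cell markers (4 genes) 505, 587, 520 and 895. The median proximal marker stood at 77.2 to 106% of its proximal level. By summed CPM the 9 proximal markers were lower, at 29145, 22634, 34140 and 21898 against 60731, 51609, 57774 and 48605 in the proximal gate. The part of any of these in the Id levels was not tested.

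Barcodes above the mitochondrial limit also had more Id1, Id2 and Id3 at D4 and D7. Against D0, Id1 was 6.44-fold and 6.43-fold higher at D4 and at D7, Id2 1.52-fold and 1.39-fold, Id3 2.78-fold and 2.69-fold, and Id4 at D7 was 3.19-fold higher from 9 against 11 UMIs. At D1 the ratio to D0 of Id2 in these barcodes was below 1, at 0.689 (0.622 to 0.763). Id3 was at 0.770 times (0.553 to 1.06) and Id1 at 0.681 times (0.349 to 1.26), both with intervals that include 1, while Id3 was 1.40-fold higher at D1 in the proximal gate.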

How the results depend on the processing

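Of 48 ratios of Id genes in the 4 larger gates, 38 stayed on their side of 1 under every alternative that gave a value. Some of these 38 lacked a value under at least 1 alternative. Id1 in the thick limb and distal gates at D4 and D7, and in the immune gate at D7, had 9 values. None of these 9 was the one with carried proximal RNA taken off. Id1 and Id3 in the proximal gate stayed past 1.5-fold at D4 and D7 under each of 10 alternatives, at D7 between 4.61 and 5.08 for Id1 and between 3.29 and 3.82 for Id3. Of 536 values under alternatives, 6 fell on the other side of 1 from a reported ratio that differed at least 1.5-fold from 1. A further 109 left the counting interval or, for counts, moved by over 1.5 times. With TMM scaling the proximal D7 ratios were 4.61 (Id1), 1.10 (Id2) and 3.48 (Id3). As a mean over cells, Id2 was 1.13 and Id3 3.29. Id3 was 3.82 both with at most 25% mitochondrial UMIs and with doubled gate minima, and Id2 was 1.19 over nuclear-encoded UMIs, an alternative added after the data were seen. The 1030 genes called higher and 210 lower at D7 became 269 and 70 with a pseudocount of 10 CPM and 435 and 54 at 2-fold. With TMM, 392 were higher and 194 lower at D1, in place of 530 and 86, or 66.9 in place of 86.0% of calls.

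The other 10 crossed 1 under at least 1 alternative, among them proximal Id1 at D1 (1.08, or 0.979 with TMM) and immune Id2 at D7 (1.13, or 0.778 in cells of no other gate, from 276 against 329 UMIs). Immune Id2 at D4, 1.29, was 0.729 once carried proximal RNA was taken off. Distal Id1 at D1, 0.473, was 1.90 in cells of no other gate and 1.25 (1.255) without the highest Scrublet scores. Distal Id4, 3.79 at D4 and 1.80 at D7, was 0.455 and 0.577 with at most 25% mitochondrial UMIs. Immune Id4 at D1, 2.34, was 0.688 with doubled gate minima. Immune Id1 at D4, 3.93, was 0.0948 once carried proximal RNA was taken off, which was added after the data were seen. No value could be had where an Id gene was at 0 at D0 or the carried level exceeded the measured one. No paired analysis was possible because each day has 1 library and all carry the same replicate number.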
